A study of Drosophila melanogaster with 4 samples.

Results

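The genes described here are 8 transcription factors and adhesion molecules that mark somatic cells of the Drosophila ovary: tj, zfh1, eya, cas, bab2, shg, CadN and Fas3. They were chosen by symbol, and all 32 transcript rows that carry these symbols were summed per gene, out of 35327 rows of 16757 genes. The measurements are poly(A) RNA-seq libraries of OSCs, a cultured line of ovarian somatic cells that grows without germ cells, collected 4 days after transfection with siRNA at 26 °C. There was 1 library for each of sipiwi, siMi-2 and siRpd3, and 1 control library, siGFP, whose labels name the siRNA target EGFP. Every library came from the same line. The study states for its experiments in general that they were repeated with independent samples, without naming the RNA-seq. With 1 library per condition there is no replicate check, no p-value can be given, and each difference below is between libraries. The study used these knockdowns to ask whether the nucleosome remodeler Mi-2 and the histone deacetylase Rpd3 act with Piwi, the Argonaute protein that silences transposons, and the table of genes shows what else differed between the same cells.

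In the Drosophila ovary, follicle cells descend from stem cells in the germarium and wrap each germline cyst in an epithelium. Tj, a large Maf factor, is found in somatic cells of the gonad from the embryo on, while Eya and Cas are used together in follicle precursors and then separate as polar, stalk and main body cells form. The adhesion molecules E-cadherin (shg), N-cadherin (CadN) and Fasciclin 3 (Fas3) hold these cells to each other and to the germline, and Fas3 is the usual antibody marker of early follicle cells and polar cells.

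Levels are FPKM as deposited, that is, reads per kilobase of transcript relative to all mapped reads, so that they can be compared between genes. The steps between FPKM values gave the depth, 32638866 to 38060116 mapped reads per library. In genes with 1 transcript and at most 20 reads, 75.8% to 78.8% of the read numbers were even, against 50.4% to 54.4% above 100 reads, as when both mates of a pair are counted, although the sources do not say that reads were paired. The number of reads was therefore divided by 2 before any interval was computed, and 6 reads (3 pairs) are taken as the floor, 0.0315 to 0.0368 FPKM for a transcript of 5000 nt. All intervals are 95% intervals for counting error alone, because each condition had 1 library. Reads copied by PCR are not separate molecules, so that even this error may be understated. For log2 ratios, exact bounds on the read shares were carried over to the scale defined next, where they are approximate. Ratios are log2((FPKM + 0.1) in the knockdown / (FPKM + 0.1) in siGFP), a scale that understates the difference of low genes. The siRNA targets were checked first. In sipiwi the piwi RNA was at 38.9 FPKM, against 73.5 in siGFP (log2 ratio -0.92), and Mi-2 RNA was at 5.67 FPKM in siMi-2, against 34.4 in siGFP (-2.58). Rpd3, under its current symbol HDAC1, was at 104.0 FPKM in siRpd3, against 71.3 in siGFP, a log2 ratio of 0.54, which became -0.15 after scaling to the median gene. Since the targeted RNA was not lower as deposited, this sample is called the library labelled siRpd3, or the siRpd3-labelled library. Every direction drawn from it carries that limit. The paper reports checks of RNAi efficiency in OSCs, by RT-qPCR and by western blots that include the Rpd3 protein. It does not say whether those cells came from the transfections sequenced here. Ratios in it also differed with transcript length, with a median of -0.36 over 606 genes below 600 nt and of 2.02 over 552 genes of at least 5000 nt. In sipiwi these medians were 0.06 and 0.69, and in siMi-2 they were 0.21 and 0.37. For this reason the median ratio of the 200 genes nearest in length is given beside each member of the set.

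The 8 genes spanned a wide range of levels. In siGFP the order was tj, eya, zfh1, bab2, shg, Fas3, CadN and cas, with counting intervals that overlapped only between the neighbours zfh1 and bab2. tj ranked first and eya second of the 8 in every library. Fas3 was at rank 3 in sipiwi, rank 4 in siMi-2 and rank 3 in the siRpd3-labelled library, against rank 6 in siGFP, and in siMi-2 its level could not be told from that of bab2. The 6 genes tj, eya, zfh1, bab2, shg and Fas3 reached a mean of 1 FPKM over the 4 libraries, as did 7947 of all genes, and they form the set for counts and medians. CadN (mean below 1 FPKM) and cas missed it and are given by their values only.

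**Figure D1:**
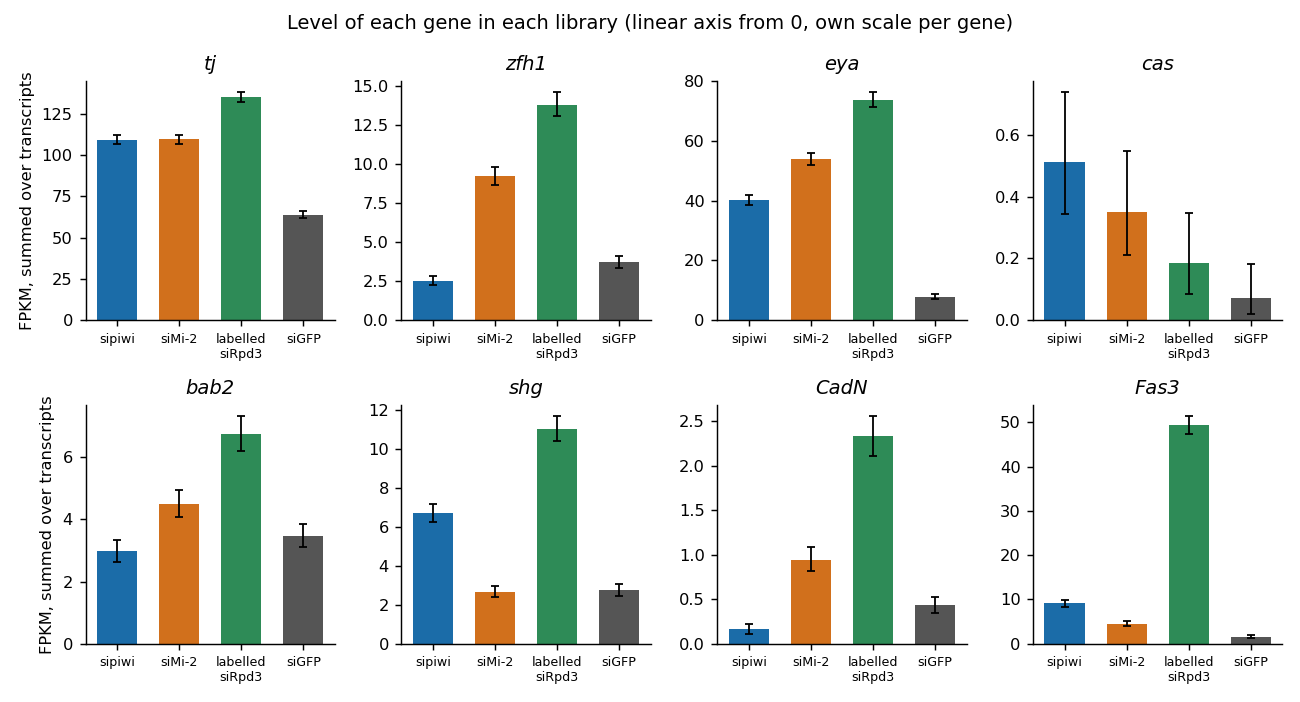
FPKM of each gene, summed over its transcripts, in sipiwi, siMi-2, the siRpd3-labelled library and siGFP, 1 library each, on a linear axis that starts at 0 with its own scale per gene. Bars are the deposited values and lines are exact 95% Poisson intervals for counting error. tj, eya, cas and Fas3 have their lowest bar in siGFP, and zfh1, bab2 and CadN have theirs in sipiwi.

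eya and Fas3 were more than 2-fold above siGFP in each knockdown library, and none of the 6 genes was below 0.5-fold in any. In sipiwi, 3 of the 6 (eya, shg and Fas3) were more than 2-fold higher, where 11.4% of all 7947 genes were, and none was below 0.5-fold, where 2.54% were. In siMi-2, 3 of the 6 (zfh1, eya and Fas3) were above 2-fold and none below 0.5-fold, with 15.7% and 3.44% of all genes. In the siRpd3-labelled library, 5 of the 6 were above 2-fold, all but bab2, and none below 0.5-fold, but 40.9% of all genes were also above and 7.44% below. The median log2 ratio of the 6 was 1.01 in sipiwi, 1.04 in siMi-2 and 1.92 for the siRpd3-labelled library, against 0.29, 0.13 and 0.69 over all genes in the same order. The 3 comparisons share the siGFP library. In a bulk culture, more cells of a type and more RNA per cell cannot be told apart.

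After scaling every library to the median gene, which removes these shifts, 2 of the 6 were above 2-fold in sipiwi (eya and Fas3; 5.34% of all genes), 3 in siMi-2 (13.4%) and 4 for the siRpd3-labelled library (23.1%). None was below 0.5-fold on that scale, where 4.66%, 4.64% and 21.7% of all genes were. Relative to the 200 genes nearest in length, 2 of the 6, eya and Fas3, were above 2-fold in each knockdown, and zfh1 was below 0.5-fold in sipiwi. The median of the 6 then became -0.13 in the siRpd3-labelled library, the reverse of its unadjusted direction. Of the 200 genes nearest to eya in length, 0, 5 and 7 had a higher ratio in sipiwi, siMi-2 and the siRpd3-labelled library. For Fas3 these were 1, 19 and 0, and for zfh1 in sipiwi 187. The share of all genes past 2-fold on this scale was not computed.

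**Figure D2:**
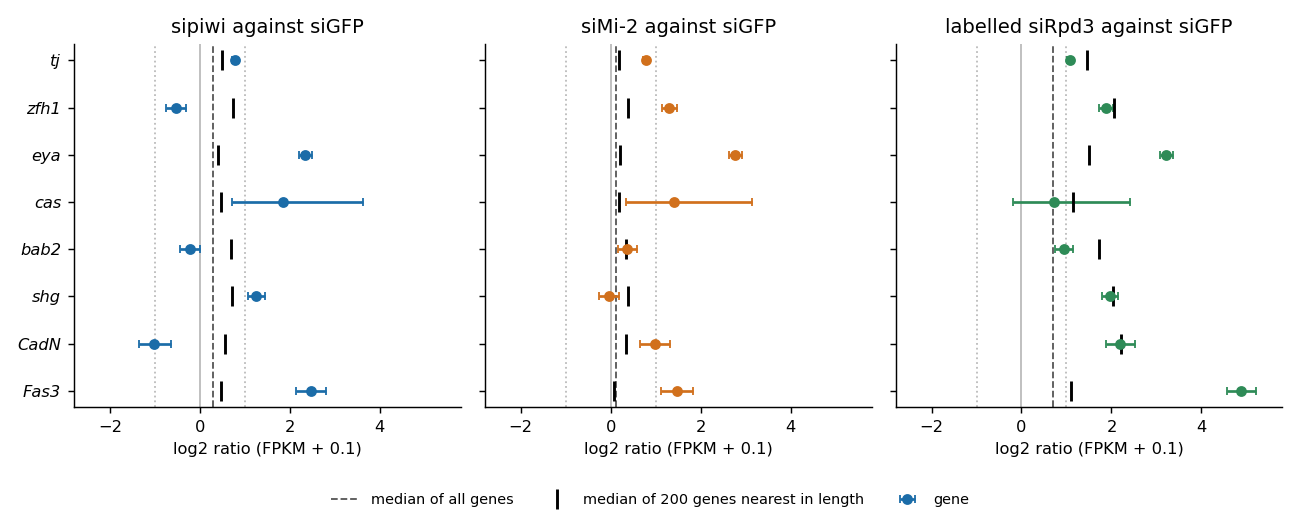
Log2 ratio of each gene to siGFP in the 3 knockdown libraries, with 95% counting intervals. The dashed line is the median of all 7947 genes, black ticks are the median of the 200 genes nearest in transcript length, and dotted lines mark 2-fold in each direction. eya and Fas3 lie right of the length tick in all 3 panels, while in the siRpd3-labelled library the other 6 genes lie on or left of it.

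tj (FBgn0000964, dm6 2L:19464267-19467758, plus strand) is an intronless gene for the Maf factor Traffic jam, which in OSCs is also a source of piRNAs from its 3′ UTR. It was at 109.4 FPKM in sipiwi, 109.6 in siMi-2 and 135.0 FPKM in the siRpd3-labelled library, against 64.0 in siGFP. All knockdown libraries were above siGFP, and sipiwi and siMi-2 were level with each other. The log2 ratios were 0.77 (interval 0.72 to 0.83) in sipiwi, 0.78 (0.72 to 0.83) in siMi-2 and 1.08 (1.02 to 1.13) for the siRpd3-labelled library. The 200 genes nearest to its 3492 nt had medians of 0.49, 0.19 and 1.46, so that tj was above them in sipiwi and siMi-2 and 0.39 below them in the siRpd3-labelled library. It was among the more abundant RNAs of these cells in every library, with 95.4% of all genes below it in the siRpd3-labelled library and 90.9% in siGFP.

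eya (FBgn0000320, dm6 2L:6527447-6546976, minus strand) encodes Eyes absent, a transcriptional co-activator and phosphatase that represses polar and stalk fates in follicle cells. It was at 40.1 FPKM in sipiwi, 53.9 in siMi-2 and 73.8 FPKM in the siRpd3-labelled library, against 7.84 in siGFP. Each knockdown library stood far above siGFP, by 5.11-fold (interval 4.62 to 5.67), 6.87-fold (6.22 to 7.60) and 9.42-fold (8.53 to 10.4). Its log2 ratios of 2.34, 2.76 and 3.22 placed it at rank 84, 269 and 267 of the 7947 genes. Genes of similar length had medians of 0.41, 0.21 and 1.49, and the excess over them was 1.93, 2.55 and 1.72 on the log2 scale. The 3 listed transcripts of eya were all higher in every knockdown, by 4.51- to 5.84-fold in sipiwi, 5.87- to 7.79-fold in siMi-2 and 7.97- to 10.5-fold in the siRpd3-labelled library. Its DNA-binding partner so (sine oculis) was at 36.5 FPKM in sipiwi, 25.9 in siMi-2 and 48.1 FPKM in the siRpd3-labelled library, against 14.9 in siGFP, log2 ratios of 1.29, 0.79 and 1.68. The other nuclear partner dac (dachshund) was at 0.0744 FPKM or less in all 4 libraries.

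cas (FBgn0004878, dm6 3R:5712975-5716805, minus strand) encodes the zinc finger protein Castor, which acts beside Eya in follicle precursors and specifies polar and stalk cells. It had 58 reads in sipiwi, 38 in siMi-2 and 18 reads in the siRpd3-labelled library, against 8 in siGFP, or 0.513, 0.351, 0.183 and 0.071 FPKM in the same order. All values were low, and the intervals are wide. The ratio was 7.23-fold in sipiwi (interval 2.54 to 28.3), 4.94-fold in siMi-2 (1.64 to 19.95) and 2.58-fold for the siRpd3-labelled library (0.721 to 11.5). In the last library a difference from siGFP was not detectable at this depth. The value of cas was highest in sipiwi. Its separate counting intervals overlapped among all 3 knockdown libraries, which does not settle their order. Directly against sipiwi, siMi-2 had a log2 ratio of -0.44 (interval -1.10 to 0.28). The siRpd3-labelled library was not set directly against the other knockdowns. Genes nearest to its 2845 nt had medians of 0.47, 0.18 and 1.15, and cas was 0.43 below them on the log2 scale in the siRpd3-labelled library.

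zfh1 (FBgn0004606, dm6 3R:30765926-30789202, plus strand) encodes a zinc finger homeodomain repressor of the ZEB family, used in mesoderm and in the somatic cells of both gonads. It was at 2.51 FPKM in sipiwi, 9.23 in siMi-2 and 13.8 FPKM in the siRpd3-labelled library, against 3.69 in siGFP. It was below siGFP in sipiwi and above it in the other knockdowns, with log2 ratios of -0.54 (interval -0.76 to -0.32), 1.300 (1.13 to 1.47) and 1.88 (1.71 to 2.04). Set directly against each other, siMi-2 was 3.68-fold above sipiwi, a log2 ratio of 1.84 (interval 1.65 to 2.03), while the median gene had -0.18 in that comparison. All 3 transcripts had the same directions, with 0.658 to 0.704 times the siGFP level in sipiwi and 2.08 to 2.71 times in siMi-2. The gene's longest transcripts are 6522 nt, and genes of that length had medians of 0.74 in sipiwi, 0.37 in siMi-2 and 2.07 for the siRpd3-labelled library, the last 0.19 above the ratio of zfh1.

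bab2 (FBgn0025525, dm6 3L:1140429-1177276, minus strand) encodes a BTB protein that, with its neighbour bab1, shapes the terminal filaments of the ovary. It was at 2.98 FPKM in sipiwi, 4.50 in siMi-2 and 6.76 FPKM in the siRpd3-labelled library, against 3.48 in siGFP. It stayed within 2-fold of siGFP in all of them: the log2 ratio was -0.22 (interval -0.44 to 0.01; 0.23 when scaled to RpL32) in sipiwi, 0.36 (0.16 to 0.57) in siMi-2 and 0.94 (0.74 to 1.14) for the siRpd3-labelled library. Genes nearest to its 5149 nt had medians of 0.70, 0.34 and 1.73. The neighbouring paralog bab1 differed more, at 2.92 FPKM in sipiwi, 0.955 in siMi-2 and 3.52 FPKM in the siRpd3-labelled library, against 0.583 in siGFP. Its log2 ratios were 2.15, 0.63 and 2.41, so that bab1 was more than 2-fold higher in sipiwi, where bab2 was not.

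Fas3 (FBgn0000636, dm6 2L:18320102-18393441, plus strand) encodes an immunoglobulin domain protein of septate junctions that binds itself on adjoining cells. It was at 9.12 FPKM in sipiwi, 4.51 in siMi-2 and 49.4 FPKM in the siRpd3-labelled library, against 1.57 in siGFP. All knockdown libraries were above siGFP, and no counting intervals overlapped among the 4. Its log2 ratios were 2.47 (interval 2.13 to 2.81), 1.46 (1.11 to 1.83) and 4.89 (4.58 to 5.22), and the last corresponds to 31.5-fold (25.3 to 39.6) without the added constant. Among the 7947 genes it ranked 72 in sipiwi, 730 in siMi-2 and 53 for the siRpd3-labelled library. Genes nearest to its 2671 nt had medians of 0.47, 0.07 and 1.09, which leaves an excess of 1.999, 1.39 and 3.795, the largest of the 8 genes in the first and the last of these comparisons.

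The 7 listed transcripts of Fas3 were all higher in all 3 knockdowns. Without the added constant they were 4.997- to 7.46-fold above siGFP in sipiwi, 1.75- to 4.93-fold in siMi-2 and 25.7- to 52.0-fold in the siRpd3-labelled library. The transcript Fas3-RC carried the largest share of the reads of the gene in every library but siMi-2, where Fas3-RD had 19.9%. The share of Fas3-RC was 27.5% in sipiwi, 17.8% in siMi-2 and 24.5% for the siRpd3-labelled library, against 30.4% in siGFP. Fas3-RC had the lowest ratio of the 7 in siMi-2. Reads that fit several transcripts of a gene are divided among them by the mapping, so that transcript values describe the table and not separate measurements. The genes CG34171 and Acp36DE overlap the Fas3 locus and were at no more than 0.320 FPKM in any library.

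**Figure D3:**
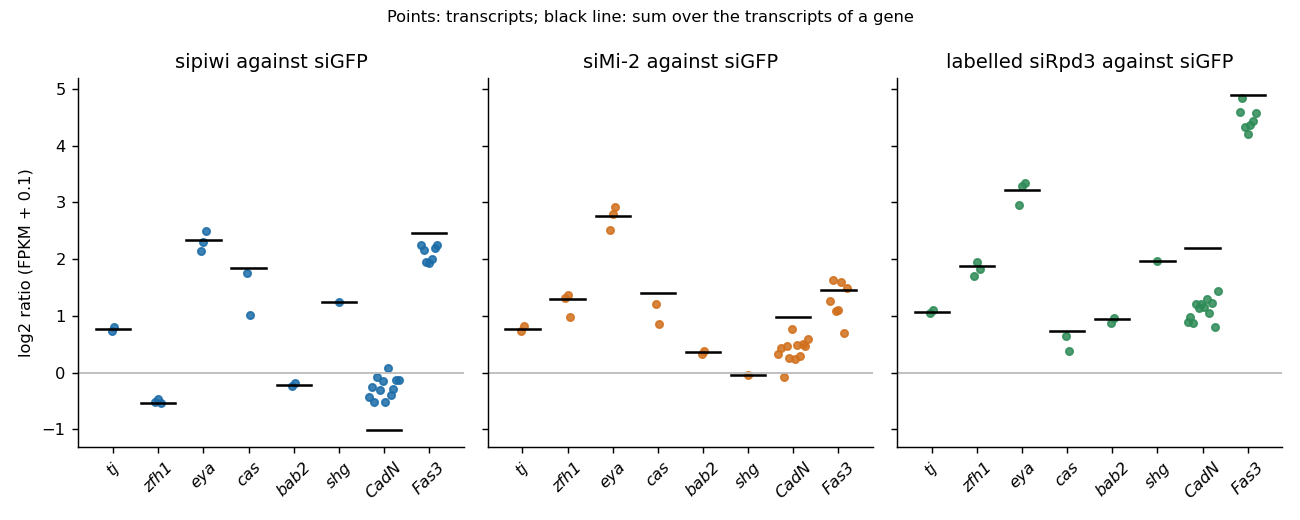
Log2 ratio to siGFP, log2(FPKM + 0.1), of every listed transcript of the 8 genes (points) and of the sum over the transcripts of a gene (black line), in 3 knockdown libraries. All 7 Fas3 points and all 3 eya points are above 0 in every panel, and all 3 zfh1 points are below 0 in sipiwi and above 0 elsewhere. All CadN points, and the Fas3 points in sipiwi and the siRpd3-labelled library, lie closer to 0 than the line of their gene, while in siMi-2 3 of the 7 Fas3 points lie farther from 0 than it.

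shg (FBgn0003391, dm6 2R:21049654-21057197, minus strand) encodes E-cadherin, the adherens junction protein by which follicle stem cells and border cells hold to their neighbours. Its single listed transcript was at 6.70 FPKM in sipiwi, 2.67 in siMi-2 and 11.04 FPKM in the siRpd3-labelled library, against 2.75 in siGFP. Thus sipiwi and the siRpd3-labelled library were above siGFP, and the difference in siMi-2 lay within counting error. The log2 ratios were 1.25 (interval 1.07 to 1.44) in sipiwi, -0.04 (-0.26 to 0.18) in siMi-2 and 1.97 (1.79 to 2.15) for the siRpd3-labelled library. Directly against sipiwi, siMi-2 had 0.399 times the level, a log2 ratio of -1.29 (interval -1.48 to -1.11). Genes nearest to its 6400 nt had medians of 0.72 in sipiwi, 0.38 in siMi-2 and 2.03 for the siRpd3-labelled library, so that the higher level in the last did not exceed that of genes of its length.

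CadN (FBgn0015609, dm6 2L:17647053-17778340, minus strand) encodes N-cadherin and has 12 listed transcripts of 10409 to 13384 nt with 22 to 24 exons. It had 72 reads in sipiwi, 388 in siMi-2 and 863 reads in the siRpd3-labelled library, against 184 in siGFP, or 0.164, 0.946, 2.33 and 0.432 FPKM in the same order. Like zfh1, it was below siGFP in sipiwi and above it in the other knockdowns. Its log2 ratios were -1.01 (interval -1.36 to -0.63), 0.97 (0.65 to 1.32) and 2.19 (1.88 to 2.52), and genes of its length had medians of 0.56, 0.33 and 2.203. Directly against sipiwi, siMi-2 was 5.78-fold higher (log2 ratio 1.99, interval 1.53 to 2.50). The cadherins therefore differed from siGFP in opposite directions in sipiwi, shg higher and CadN lower. Of the 12 CadN transcripts, 1 was higher in sipiwi, 11 were higher in siMi-2 and 12 for the siRpd3-labelled library. Most of them had no more than 6 reads in sipiwi, the floor, and the higher one had 13, against 10 in siGFP. Reads that fit several of them are divided by the mapping, so that they are not separate measurements. The second N-cadherin gene, CadN2, was at no more than 0.446 FPKM.

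**Figure D4:**
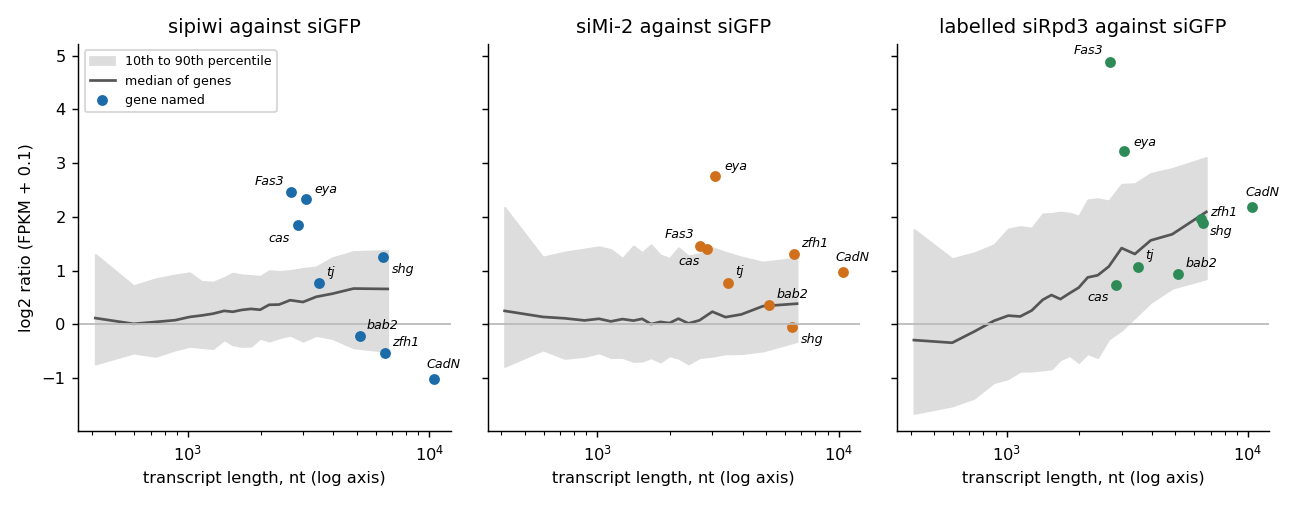
Log2 ratio to siGFP against transcript length on a log axis, for the transcript of each gene with the highest mean FPKM. The line is the median and the band the 10th to 90th percentile of all 7947 genes in 20 bins of equal size, and points are the 8 genes. In the siRpd3-labelled library the median climbs with length, tj, zfh1, bab2, shg, cas and CadN lie near or below it, and eya and Fas3 lie above the band.

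Over the 3 ratios, each relative to the median gene, the closest pair of genes in the set was zfh1 and CadN, at a Euclidean distance of 0.60 log2 units. Among genes that reached the minimum, tj and bab2 were closest, at 1.07. The nearest of the other 7946 genes was a6 for tj (distance 0.05), the calmodulin gene Cam for zfh1 (0.11), Dso2 for eya (0.27), the insulator protein gene Cp190 for bab2 (0.13), the Ras pathway scaffold gene ksr for shg (0.06) and CG9674 for Fas3 (0.37). With only 3 ratios that share siGFP, this likeness describes the table and does not set the pairs apart. The distances for eya and Fas3 were the largest.

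Genes that work with the adhesion molecules were also looked at as lists. Of 14 genes of cell junctions and polarity, 6 were more than 2-fold higher in sipiwi, 6 in siMi-2 and 11 for the siRpd3-labelled library, beside 11.4%, 15.7% and 40.9% of all genes, and none was below 0.5-fold. Scaled to the median gene, 3, 6 and 10 were above 2-fold, beside 5.34%, 13.4% and 23.1% of all genes. Their unscaled median log2 ratios were 0.67, 0.83 and 2.19, beside 0.29, 0.13 and 0.69 over all genes. Fas2, which encodes another immunoglobulin domain adhesion protein, resembled Fas3 in having its highest value in the siRpd3-labelled library, with 10.9 FPKM in sipiwi, 4.99 in siMi-2 and 32.6 FPKM in the siRpd3-labelled library, against 1.17 in siGFP. crb, the apical determinant Crumbs, was at 0.244 FPKM in sipiwi, 0.849 in siMi-2 and 6.27 FPKM in the siRpd3-labelled library, against 0.138 in siGFP. Relative to the median gene these were the highest ratios of the list in the siRpd3-labelled library, 4.06 for crb and 3.99 for Fas2, and in siMi-2, 1.89 and 1.88. However, crb was below 1 FPKM in the other libraries and reached the minimum only through the siRpd3-labelled library. Its high ratio there follows in part from that minimum, and it is counted among the 11 above. In sipiwi, Fas2 (2.83) and the basolateral scaffold gene scrib (1.19) were highest. The lowest were l(2)gl (-0.58) and par-6 (-0.20) in sipiwi, and dlg1 in siMi-2 (-0.49) and in the siRpd3-labelled library (-0.71), with sdt next at -0.0047 and -0.07. The transcripts of this list ran from 2065 nt (sinu) to 11772 nt (baz), so that the length pattern of the siRpd3-labelled library also touches it.

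The catenins, which link cadherins to actin, had unlike ratios. Of 10 relatives and partners of the 8 genes, 7 reached 1 FPKM. Among these, 2 were above 2-fold in sipiwi (bab1 and so), 2 in siMi-2 (alpha-Cat and p120ctn) and 4 for the siRpd3-labelled library, beside 11.4%, 15.7% and 40.9% of all genes, and none was below 0.5-fold. After scaling to the median gene the counts were 1, 1 and 2, beside 5.34%, 13.4% and 23.1% of all genes. Their unscaled medians were 0.21, 0.76 and 1.13. Relative to the median gene, bab1 (1.86) and so (0.99) were highest in sipiwi, and alpha-Cat (-0.94) and p120ctn (-0.69) lowest. alpha-Cat (alpha-catenin) was at 2.70 FPKM in sipiwi, 14.5 in siMi-2 and 21.1 FPKM in the siRpd3-labelled library, against 4.32 in siGFP, the same directions as CadN. p120ctn was at 25.1, 69.6 and 37.5 FPKM, against 32.9 in siGFP. arm (beta-catenin) was the most abundant at 347.3, 277.3 and 337.5 FPKM, against 314.0 in siGFP, and was the lowest of the list in siMi-2 relative to the median gene (-0.31). maf-S, the small Maf protein gene, was the lowest in the siRpd3-labelled library (-0.87) and the next lowest in siMi-2 (0.26). CtBP, a co-repressor that zfh1 binds, was at 105.9, 90.4 and 116.5 FPKM, against 53.3 in siGFP, log2 ratios of 0.99, 0.76 and 1.13.

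Other genes of somatic ovary cells gave a mixed picture. Of 19 genes, 13 reached 1 FPKM, and 1 was above 2-fold and 2 below 0.5-fold in sipiwi, 5 above in siMi-2 and 9 above in the siRpd3-labelled library. Of all genes, 11.4% were above and 2.54% below in sipiwi, and 15.7% and 40.9% were above in the other libraries. Scaled to the median gene, 0 were above 2-fold and 2 below 0.5-fold in sipiwi, and 3 were above in siMi-2. For the siRpd3-labelled library 5 were above and 1 below. On that scale 5.34%, 13.4% and 23.1% of all genes were above. Below 0.5-fold were 4.66% in sipiwi and 21.7% in the siRpd3-labelled library. Their unscaled medians were 0.30, 0.90 and 1.64. The genes below 0.5-fold in sipiwi were chinmo, a BTB factor that keeps somatic sex identity in the testis, at 0.403 FPKM, against 1.62 in siGFP, and ci, the transcription factor of Hedgehog signalling, at 1.25, against 2.94 in siGFP. In sipiwi the highest, relative to the median gene, were the Hedgehog receptor gene ptc (0.84) and LamC (0.55). In siMi-2 they were the ligand gene hh (1.70) and the ubiquitin ligase gene neur (1.68), and the lowest were fs(1)Yb (-0.18) and ci (-0.0012). In the siRpd3-labelled library the glypican gene dlp (2.29) and neur (2.18) were highest, and fs(1)Yb (-1.15) and ci (-0.24) lowest. Most of the mean of neur came from this library, at 4.07 FPKM, against 0.474 in siGFP, and neur reached the minimum through it. Its high ratio there follows in part from that minimum, and it is counted among the 9 above. fs(1)Yb, a piRNA factor of ovarian somatic cells, was at 70.2 FPKM in sipiwi, 51.2 in siMi-2 and 38.8 FPKM in the siRpd3-labelled library, against 53.3 in siGFP. Like tj, fs(1)Yb was thus abundant in every library. In the siRpd3-labelled library its log2 ratio was -0.45, where the 200 genes nearest in length had a median of 1.51.

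Of 4 Snail family and mesodermal factors, which in many animals act against E-cadherin, esg and wor reached 1 FPKM, while sna and twi stayed at or below 0.159 FPKM. wor was at 0.899 FPKM in sipiwi, 1.53 in siMi-2 and 7.005 FPKM in the siRpd3-labelled library, against 0.282 in siGFP. Most of its mean came from the siRpd3-labelled library. esg was at 3.01, 4.50 and 8.86 FPKM, against 5.59 in siGFP. The level of shg was also highest in the siRpd3-labelled library, where 40.9% of all genes were above 2-fold. In sipiwi, esg was lower than in siGFP, and wor and shg were higher. Any link between these genes and shg was not tested.

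**Figure D5:**
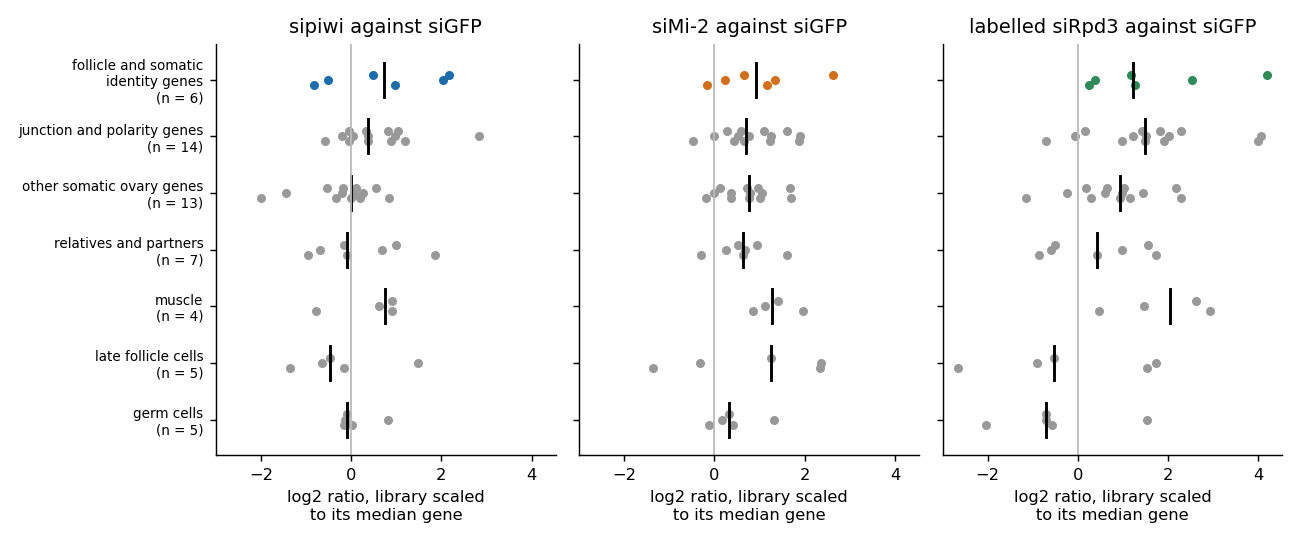
Log2 ratio to siGFP after scaling every library to the median gene (0 on the axis), for genes with a mean of at least 1 FPKM. Coloured points are 6 of the 8 identity genes, grey points are genes of 6 other lists, and black bars are list medians. The identity genes have medians of 0.72 in sipiwi, 0.91 in siMi-2 and 1.23 for the siRpd3-labelled library, and in each panel they span more than 2 log2 units.

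Markers of other cell types were read beside these results. Of 5 muscle genes, 4 reached 1 FPKM, and 2 of these were above 2-fold in sipiwi, 3 in siMi-2 and 4 for the siRpd3-labelled library, beside 11.4%, 15.7% and 40.9% of all genes. Scaled to the median gene, 0, 3 and 3 were, beside 5.34%, 13.4% and 23.1% of all genes. Their summed level was 57.7 FPKM in sipiwi, 66.2 in siMi-2 and 358.3 FPKM in the siRpd3-labelled library, against 31.0 in siGFP, most of it from the actin gene Act57B at 342.0 FPKM in the siRpd3-labelled library. Of 6 hemocyte genes, whose summed level was 10.5, 3.73 and 15.0 FPKM, against 1.43 in siGFP, srp, a GATA factor also used outside blood cells, was highest at 10.4 FPKM in the siRpd3-labelled library. Pxn (Peroxidasin), an extracellular matrix enzyme gene named after its values were seen, made up most of the sum in sipiwi, at 9.80 FPKM in sipiwi, 1.42 in siMi-2 and 4.59 FPKM in the siRpd3-labelled library, against 1.31 in siGFP. He was at 0.370 FPKM in siMi-2 and at no more than 0.095 in the other libraries, and the defining genes Hml, NimC1 and eater were at 0.0269 FPKM or less in all 4. Of 5 nervous system genes, elav was highest at 3.01 FPKM in the siRpd3-labelled library, and their summed level was 1.29, 1.99 and 3.58 FPKM, against 1.05 in siGFP. The part of other cell types in the ratios of the 8 genes was not tested.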

How the data were processed

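RNA from 4 OSC libraries was compared, and samples were assigned from their labels. The authors aligned poly(A) RNA reads to dm6 and to gene and transposon sequences with Bowtie2 2.2.4, and deposited FPKM values per RefSeq transcript. The table of transposons was not used. Of 35327 rows, 98.9% matched a RefSeq accession, 194 carried no gene name, and the transcripts of a gene were summed. Depth, transcript lengths and whole reads were recovered from FPKM steps with intronless genes of known length: 98.0% to 98.3% of their values came within 0.02 of a whole number. For ratios, the share of read pairs was given a Clopper-Pearson interval (95%), and for levels an exact Poisson interval. Ratios used a pseudocount of 0.1 FPKM, genes with a mean of at least 1 FPKM and a threshold of 2-fold.

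The genes named are the 8 genes of the set, siRNA targets and RpL32, the 2 highest and 2 lowest of each somatic list per library, the highest gene of each list of other cell types, and the nearest gene by pattern. A few other list genes were picked with their values known. The set and the lists were chosen with earlier results of these data known. Alternatives were pseudocounts of 0.01 and 1 FPKM, scaling to the median gene or RpL32, the top transcript, reads per mapped read, length neighbours, 1.5-fold, no minimum, and 5 FPKM. Gene positions came from the BDGP6 annotation, the same assembly as dm6. Sequences were not analysed here. The recovery of reads was tested on simulated data. The tools were numpy 2.4.6, scipy 1.17.1, pandas 2.3.3 and matplotlib 3.10.9, under Python 3.11.15.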

Additional observations from a re-analysis of the deposited data

How the results depend on the processing

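Each result was recomputed under the alternatives listed in the methods. Among 168 recomputed ratios of single genes, 161 kept their sign, and all 24 did so under each other pseudocount, with the median gene, with the top transcript and with recovered reads per mapped read. Relative to the 200 genes nearest in length, 6 ratios changed sign, all in the siRpd3-labelled library. Of these, tj (-0.39), zfh1 (-0.19), shg (-0.067) and CadN (-0.012) had been above 2-fold. The median of the 6 genes became -0.13 there, with 2 above 2-fold in place of 5, and the share of all genes on this scale was not computed. Scaled to RpL32, bab2 in sipiwi changed sign. The ratio of RpL32 itself was -1.27 in the siRpd3-labelled library. The median of the set in sipiwi was 0.72 with the median gene, 1.47 with RpL32 and 0.41 relative to length. In siMi-2 it was 0.91 with the median gene, 0.72 with the top transcript and 0.76 relative to length. In the siRpd3-labelled library it was 1.67 with a pseudocount of 1 FPKM, 1.23 with the median gene and 3.18 with RpL32. The number of genes below 0.5-fold in sipiwi was 1 in place of 0 relative to length (zfh1) and without the minimum level (CadN). Other counts stayed within 1.5 times. Over genes with a mean of at least 5 FPKM the share above 2-fold was 9.33% in sipiwi, 10.7% in siMi-2 and 35.6% for the siRpd3-labelled library. Why values moved was not tested. No paired analysis was possible because each condition had 1 library, and for the same reason no replicate could be left out. Depth limits cas, with 8 reads in siGFP.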

Other observations

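Genes of late follicle cells, which make yolk proteins, vitelline membrane and chorion, differed from siGFP in both directions. Of 15 such genes, 5 reached a mean of 1 FPKM. Of these, 1 was above 2-fold in sipiwi, 3 in siMi-2 (Yp3, psd and Cp18) and 2 for the siRpd3-labelled library. The shares of all genes were 11.4%, 15.7% and 40.9%. Below 0.5-fold was 1 in each: Cp15 in sipiwi and the siRpd3-labelled library, and dec in siMi-2. Of all genes, 2.54%, 3.44% and 7.44% were. However, Yp3 was below 1 FPKM in the other libraries and reached the minimum only through siMi-2. psd was at 0.326 FPKM in siGFP and 0.255 in sipiwi, and reached it through siMi-2 (2.24) and the siRpd3-labelled library (1.85). Their high ratios, and with them the siMi-2 median, follow in part from that minimum. The median log2 ratios of the 5 on unscaled FPKM were -0.26 in sipiwi, 1.38 in siMi-2 and 0.06 for the siRpd3-labelled library. Over all genes the medians were 0.29, 0.13 and 0.69. For the siRpd3-labelled library the median of the 5 became -0.53 after scaling to the median gene. The highest level belonged to dec (defective chorion), with 73.9 FPKM in sipiwi, 9.07 in siMi-2 and 114.7 FPKM in the siRpd3-labelled library, against 21.4 in siGFP. Yp3, a yolk protein gene, was at 0.726, 4.23 and 0.707 FPKM, against 0.673 in siGFP, and was chosen for mention after its values were seen. The other yolk protein genes, Yp1 and Yp2, had 0 reads in siMi-2 and no more than 0.168 FPKM in any library.

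Among 10 germ cell genes looked at, pgc, an RNA of the germ plasm, had the highest level, with 68.7 FPKM in sipiwi, 74.9 in siMi-2 and 21.5 FPKM in the siRpd3-labelled library, against 54.9 in siGFP. The germ cell gene vas, named after its values were seen, was at 0.298, 2.66 and 0.429 FPKM, against 0.0243 in siGFP. It had 2 reads in siGFP, below the floor of 6, and did not reach a mean of 1 FPKM. Of the 10 genes, 5 did, and 1 of these was above 2-fold in each knockdown library. The shares of all genes were 11.4% in sipiwi, 15.7% in siMi-2 and 40.9% for the siRpd3-labelled library. In the last, 1 of the 5 was below 0.5-fold, beside 7.44% of all genes. The list was not uniform in siMi-2, where vas was highest. There otu and osk had 0 reads, ovo was at 0.0357 FPKM, against 0.0630 in siGFP, and bgcn was at 1.89 in both. grk was at 6.09 FPKM in siMi-2, against 2.16 in siGFP, and bam, bcd and orb were also higher.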
